A study of Drosophila melanogaster with 10 samples.

Results

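Mitochondrial ribosomal proteins were examined in Malpighian (renal) tubules and in whole flies of Drosophila melanogaster. They are the genes with symbols beginning mRpL, for the large subunit of the mitochondrial ribosome, and mRpS, for the small subunit. A probe set was used where its annotation names a single gene, and where a gene has several probe sets that of the highest mean signal over the 10 arrays was taken. Of 13966 probe sets tested, 66 fitted the rule, and they report on 64 genes, of which 43 are mRpL and 21 are mRpS. The 9 other genes of these names in the RefSeq gene table (mRpL27, mRpL34, mRpL37, mRpL53, mRpS5, mRpS10, mRpS14, mRpS21 and mRpS23) are not analysed here as members.

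The arrays were 5 of tubule and 5 of whole fly, Affymetrix Drosophila genome arrays hybridized with RNA of Oregon R adults, 7 days old and of mixed sexes. Tubules, dissected in batches of 1000, had been cut from the gut at the lower ureter, and flies of the same culture had been homogenized in batches of 100. Arrays 2 to 6 of each kind form 5 matched pairs. An array may hold RNA of several such batches, and p-values measure the spread between these samples. No allele, transgene or treatment is named for either group. A whole fly contains its own tubules, so the comparison sets an organ against an average that includes it. In such bulk samples, fewer cells of a type and less RNA per cell cannot be told apart.

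The mitochondrial ribosome, or mitoribosome, translates the few messages encoded by the mitochondrial genome, which in animals specify core subunits of the respiratory chain and ATP synthase. Its rRNAs are mitochondrial transcripts, whereas all of its proteins are made in the cytosol from nuclear genes and imported. Some of these proteins have counterparts in the bacterial ribosome, and others were added in the mitochondrial lineage. The tubule is an epithelium that pumps ions and organic solutes with the energy of ATP, and its main secretory cells are rich in mitochondria.

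The mRNAs of the mitoribosome were close to even between tubule and whole fly. Of the 64 genes, 59 (92.2%) had a fitted change under 1.5-fold in either direction, against 38.7% of all probe sets tested. Such small changes were not particular to them, since 81.1% of 37 cytosolic ribosomal protein genes had one. The share was 57.1% of 21 genes of mitochondrial gene expression and 29.6% of 71 respiratory chain and ATP synthase genes. mRpL39, which fell in tubule, was the single member whose change passed 2-fold (1.56% of members against 42.4% of all probe sets). It did so narrowly, at a log2 fold change of -1.01, which ran from -1.35 to -0.51 over 18 alternative settings. A gene was called where the adjusted p of the paired limma fit over all probe sets was under 0.05. By this rule 15 of 64 members (23.4%) were called, against a background of 53.1% of all probe sets (7418 of 13966). mRpL28, mRpS34, mRpL48, mRpL4, mRpL30 and mRpL35 were higher in tubule, 6 genes against a background of 16.8% of probe sets. mRpL39, mRpS18A, mRpL38, mRpS31, mRpL44, mRpL36, mRpS16, mRpS33 and mRpL12 were lower, 9 genes against a background of 36.3%.

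**Figure D1:**
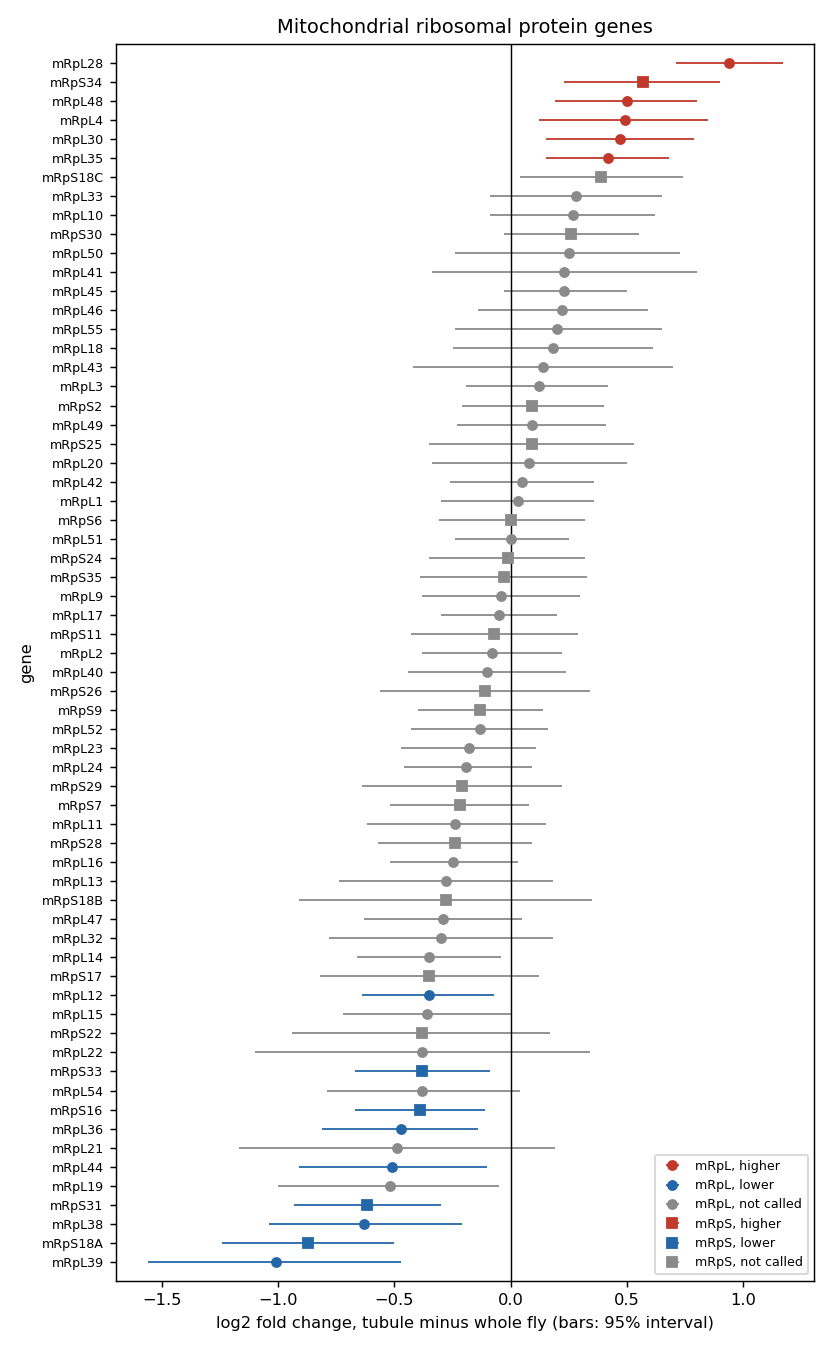
Fitted log2 fold change (tubule minus whole fly) of each of the 64 mitochondrial ribosomal protein genes, ordered from highest to lowest, with bars for the 95% interval of the paired fit. Circles are mRpL and squares mRpS genes, red marks the 6 called higher, blue the 9 called lower and grey the 49 not called, and the points run from 0.94 (mRpL28) to -1.01 (mRpL39).

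Most members were clear of the range of low signals. Signals reached 50 in all 10 arrays for 54 members (84.4%), against 24.9% of all probe sets. Of the 6125 probe sets whose signal averaged 50 or more over the arrays, 71.3% were called (29.5% higher and 41.9% lower), and of the 60 members whose signal did so 15 (25.0%) were called. The median coefficient of variation between arrays of a group was 12.9% in tubule and 13.9% in whole fly for the members, and 16.9% and 16.3% for these 6125 probe sets. The members thus had no more spread between replicate arrays than other probe sets of such signals.

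The median log2 fold change of the members was -0.09, with quartiles at -0.35 and 0.15, while that of all probe sets was -0.32. The SD of the members' log2 fold changes was 0.35, against 1.60 for all probe sets. Among the 49 members not called, the 95% interval lay within 1.5-fold in either direction for 26 and within 2-fold for 47. The 2 whose interval reached 2-fold, named here after their values were seen, were mRpL21 and mRpL22, both of variable signal. The direction of the members' median depended on how the arrays were scaled. It was 0.23 after quantile normalization, which moved the median of all probe sets by 0.50, and -0.43 with the cytosolic ribosomal protein gene RpL32 held constant, which moved it by -0.34. Relative to the median of all probe sets, the members stood 0.23 higher with the deposited scaling, a value that no linear scaling can change, and 0.06 higher after quantile normalization, but at -0.07 and -0.06 where signals under 20 or under 50 were first raised to that floor. The calls moved with the scaling too, to 17 higher and 4 lower after quantile normalization and to 1 higher and 30 lower with RpL32 held constant. Of all probe sets, 54.4% and 56.6% were called in these settings, in the same order.

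By symbol, the mRpL genes gave 5 called higher and 5 called lower of 43, with a median log2 fold change of -0.05. The mRpS genes gave 1 called higher and 4 called lower of 21, with a median of -0.13, although the proteins of mRpS18A, 1 of the 4, and mRpS30 lie in the large subunit in mammals. The 36 genes assigned a bacterial counterpart, mainly by symbol number, included 4 called higher and 3 called lower (median -0.10). The other 28 included 2 called higher and 6 called lower (median -0.07). The number rule can misplace a gene, so the latter need not all be mitochondria-specific. They include the S18 copies mRpS18A and mRpS18B, of which mRpS18A was called lower. Shares called higher and lower were 11.6% and 11.6% for mRpL and 4.76% and 19.0% for mRpS. They were 11.1% and 8.33% for genes assigned a bacterial counterpart, and 7.14% and 21.4% for the others. All lay below the shares of all probe sets (16.8% and 36.3%), which also lean toward lower calls. The differences between these groups of members were not tested.

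The plainest gain in tubule was that of mRpL28, the mitochondrial form of bacterial L28, a protein of the large subunit. Its signals were 683.9, 569.4, 637.5, 588.8 and 603.3 in tubule arrays 2 to 6 and 324.8, 355.0, 342.7, 271.4 and 318.2 in the matched fly arrays. Every tubule array lay far above every fly array. Enrichment was taken as tubule signal over whole fly signal in each pair, averaged over the 5 pairs. It was 1.93 ± 0.224 (SD, n = 5 pairs), from 1.60 to 2.17, and the log2 fold change was 0.94 (adjusted p = 1.1e-04, limma). mRpL28 was called higher in all 18 alternative settings tried, where the adjusted p was at most 0.0054.

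The other members of bacterial type called higher in the large subunit were mRpL4, mRpL30 and mRpL35. mRpL35 signals were 275.2, 225.7, 219.5, 208.4 and 215.1 in tubule and 204.8, 141.6, 179.2, 186.1 and 148.6 in whole fly. The groups did not overlap, although the lowest tubule and the highest fly signals nearly met. Its enrichment was 1.35 ± 0.185 (adjusted p = 0.016, limma). mRpL30 signals were 160.7, 186.3, 188.5, 142.1 and 180.2 in tubule and 91.8, 138.3, 120.9, 138.0 and 134.0 in whole fly. Here too the groups stood apart, but pair 5 was nearly level, and the enrichment was 1.41 ± 0.270 (adjusted p = 0.021, limma). mRpL4, whose bacterial form lines the tunnel through which the new chain leaves, had signals of 132.3, 182.2, 188.7, 127.1 and 160.9 in tubule and 102.1, 108.3, 99.7, 131.5 and 119.3 in whole fly. Its tubule array 5 was below its fly array 5, so the groups overlapped, and the enrichment of 1.44 ± 0.359 (adjusted p = 0.033, limma) was higher in 4 of 5 pairs. The call of mRpL4 was lost in 9 of 18 alternatives, that of mRpL30 in 7 and that of mRpL35 in 5.

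mRpL48 has no bacterial counterpart and belongs, in mammals, to the central protuberance of the large subunit. Its signals were 129.4, 150.2, 181.8, 158.2 and 155.1 in tubule and 91.7, 125.5, 96.5, 123.6 and 113.5 in whole fly. The lowest tubule array was above the highest fly array, and the enrichment was 1.43 ± 0.268 (adjusted p = 0.014, limma). mRpL38, a neighbor of mRpL48 in the mammalian central protuberance with a fold like that of phosphatidylethanolamine-binding proteins, was called in the opposite direction. Its signals were 115.2, 113.6, 127.6, 103.6 and 86.1 in tubule and 184.2, 158.9, 120.4, 202.6 and 182.5 in whole fly. Pair 4 was the exception to the direction, with a ratio of 1.06, and the enrichment was 0.677 ± 0.235 (adjusted p = 0.019, limma). Its call was lost in 7 of 18 alternatives.

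mRpL39, related in sequence to threonyl-tRNA synthetase, had the lowest fitted value of the members. Its signals were 57.0, 32.2, 47.0, 51.2 and 67.1 in tubule and 70.1, 119.6, 83.9, 131.3 and 107.9 in whole fly. The groups did not overlap, but both were widely spread and the within-pair ratios ran from 0.269 to 0.813. The enrichment was 0.531 ± 0.210 and the log2 fold change -1.01, with a 95% interval from -1.56 to -0.47 (adjusted p = 0.0072, limma). mRpL44, which carries an RNase III-like fold, was also lower, at an enrichment of 0.715 ± 0.146 (adjusted p = 0.040, limma). Its tubule signals (33.7 to 57.7) all lay below those of whole fly (58.6 to 72.7), and 3 of its 10 arrays were under 50. The call of mRpL44 was lost in 5 of 18 alternatives, and those of mRpL39 and mRpL48 in 2 each.

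mRpL36 and mRpL12 were the members of bacterial type called lower in the large subunit. mRpL36, a small zinc-binding protein, had signals of 128.8, 153.5, 166.2, 136.0 and 118.6 in tubule and 164.0, 197.7, 170.9, 229.7 and 213.9 in whole fly. Every pair was lower in tubule, although pair 4 was almost level at 0.972, and the enrichment was 0.736 ± 0.169 (adjusted p = 0.025, limma). Its call was lost in 7 of 18 alternatives. mRpL12, the stalk protein that recruits translation factors, had signals of 234.2, 226.1, 258.9, 211.7 and 201.1 in tubule and 280.2, 247.6, 278.2, 344.6 and 299.9 in whole fly. The enrichment was 0.793 ± 0.143, lower in 5 of 5 pairs (adjusted p = 0.042, limma), and the call was lost in 10 of 18 alternatives. A further probe set of mRpL12 had low signals, 13.5 in tubule and 28.9 in whole fly on average, and was not called (adjusted p = 0.28, limma). mRpL11, which sits at the base of the same stalk in bacteria, was not called by either of its probe sets, with enrichments of 0.865 ± 0.180 (adjusted p = 0.27) and 0.934 ± 0.445 (adjusted p = 0.59, limma).

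**Figure D2:**
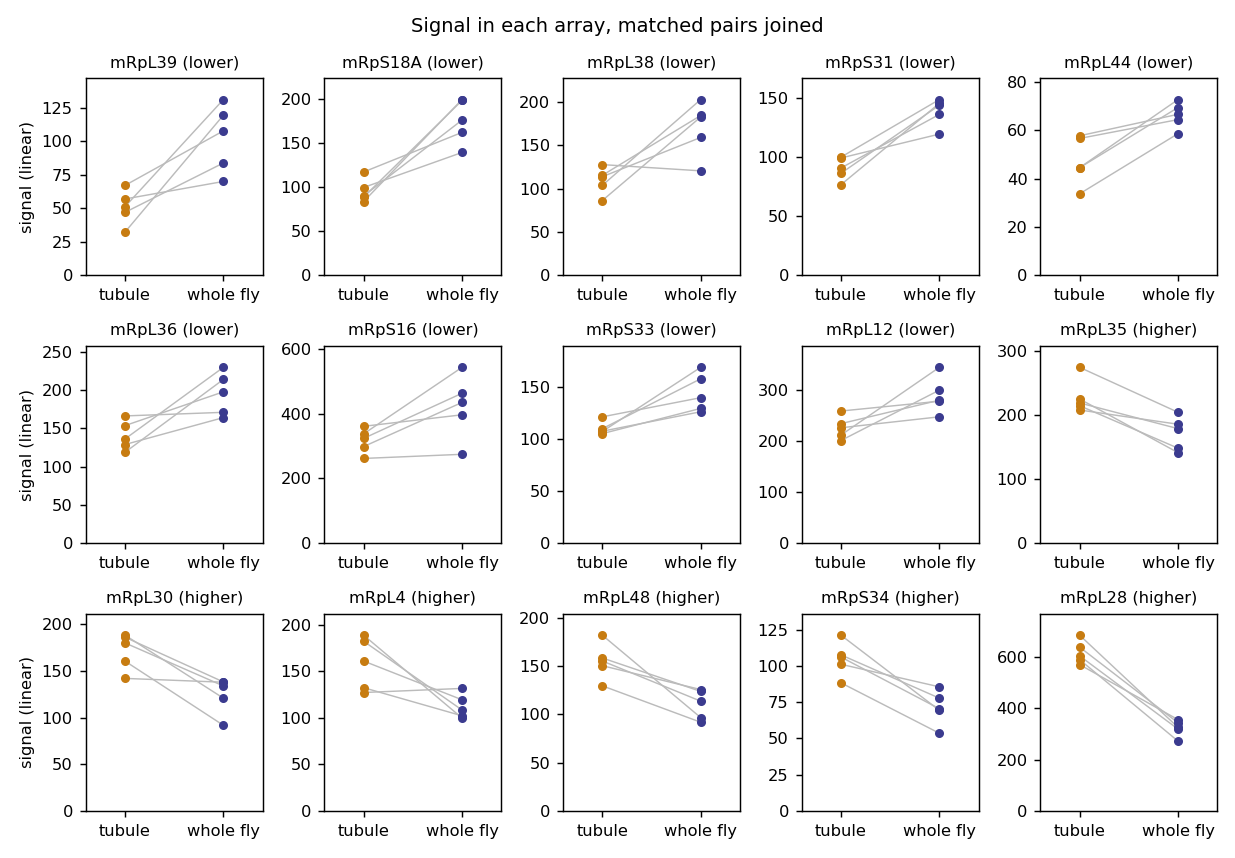
Signal on a linear scale in each array for the 15 genes called, with orange points for the 5 tubule arrays, blue points for the 5 whole fly arrays and grey lines joining matched pairs. The points of mRpL28 (617 against 322 on average) and mRpS18A (95.9 against 175) are far apart between groups, while those of mRpL12, mRpS16, mRpL36, mRpL38 and mRpL4 overlap.

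Of the mRpS genes mRpS34, which has no bacterial counterpart, was the gene called higher. Its signals were 121.3, 101.2, 88.4, 106.2 and 107.7 in tubule and 69.4, 85.6, 53.6, 70.5 and 77.8 in whole fly. No fly array reached the lowest tubule array, and the enrichment was 1.49 ± 0.222 (adjusted p = 0.011, limma). mRpS31, also of mitochondria alone, had signals of 91.0, 76.8, 99.5, 100.2 and 86.5 in tubule and 136.5, 145.9, 119.8, 149.1 and 144.3 in whole fly. The groups were apart, and the enrichment was 0.659 ± 0.113 (adjusted p = 0.0055, limma). The calls of mRpS34 and mRpS31 were each lost in 2 of 18 alternatives. mRpS33 differed by less, with tubule signals from 105.0 to 121.1, fly signals from 126.0 to 168.6 and an enrichment of 0.773 ± 0.102 (adjusted p = 0.033, limma). mRpS16, the counterpart of a bacterial protein of the small subunit body, ranged from 261.7 to 361.0 in tubule and from 274.5 to 543.3 in whole fly. These ranges overlapped, yet tubule was the lower array in 5 of 5 pairs, with an enrichment of 0.774 ± 0.148 (adjusted p = 0.025, limma). The call of mRpS16 was lost in 8 of 18 alternatives and that of mRpS33 in 6.

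The S18 protein of the bacterial small subunit is represented in animal mitochondria by several nuclear genes, and their copies in the fly had different values. In the mammalian mitoribosome mRpS18C takes the place of bacterial S18, mRpS18B lies elsewhere in the small subunit, and mRpS18A lies in the large subunit. mRpS18A had signals of 117.3, 90.1, 99.7, 88.8 and 83.7 in tubule and 162.3, 176.3, 139.5, 198.6 and 199.6 in whole fly. All tubule arrays were below all fly arrays, at an enrichment of 0.563 ± 0.146 and a log2 fold change of -0.87 (adjusted p = 0.0021, limma). It was called lower in all 18 alternatives, with log2 fold changes from -1.21 to -0.59. mRpS18C had signals of 203.4, 232.5, 251.3, 164.7 and 208.6 in tubule and 146.6, 171.8, 152.7, 193.1 and 141.9 in whole fly. Tubule was the higher array in 4 of 5 pairs, but pair 5 went the other way at 0.853, and the enrichment of 1.34 ± 0.296 did not pass the test (adjusted p = 0.058, limma). mRpS18C was called higher in 4 of 18 alternatives, among them the one without pair 5. mRpS18B signals were 28.7, 70.4, 51.5, 52.6 and 35.3 in tubule and 60.1, 44.5, 51.0, 56.8 and 65.6 in whole fly. These signals crossed between pairs, and the enrichment of 0.907 ± 0.444 was not called (adjusted p = 0.42, limma). The difference between the copies was not tested. In each of the 5 pairs the ratio of mRpS18C (1.39, 1.35, 1.65, 0.853 and 1.47) was above that of mRpS18A (0.723, 0.511, 0.715, 0.447 and 0.419).

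Without overlap between the groups, 5 members were higher in tubule (mRpL28, mRpS34, mRpL48, mRpL30 and mRpL35) and 5 were lower (mRpL39, mRpS18A, mRpS31, mRpL44 and mRpS33). The background of probe sets without overlap was 14.1% higher and 29.6% lower. The same direction in all 5 pairs was seen for 5 members toward tubule and for 13 toward whole fly, of 64, where 19.1% and 37.0% of all probe sets did so. The number of calls depended on single pairs. It was 7 higher and 3 lower without pair 5, 3 higher and 4 lower without pair 3, 3 higher and 3 lower without pair 6, 5 higher and 10 lower without pair 2, and 4 higher and 11 lower without pair 4. In the same order, 47.3%, 46.7%, 46.0%, 50.8% and 47.7% of all probe sets were called. The share was 53.1% with all 5 pairs.

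Other members had signals that did not separate tubule from whole fly. mRpL51 was close to level in every pair, with signals from 192.8 to 253.9 in tubule and from 209.5 to 238.3 in whole fly and an enrichment of 1.01 ± 0.108. mRpS6 had an enrichment of 1.02 ± 0.191 and mRpS24, the mitochondrial form of bacterial S3, one of 1.01 ± 0.234. mRpL1, of the stalk near which spent tRNA leaves the ribosome, had an enrichment of 1.03 ± 0.157. The adjusted p of these 4 genes ran from 0.87 (mRpL1) to 0.98 (mRpL51 and mRpS6), with mRpS24 at 0.95 (limma). mRpS7, a protein of the small subunit head, had mean signals of 403 ± 35.8 in tubule and 473 ± 75.8 in whole fly, and was not called (adjusted p = 0.19, limma). mRpL45, which in mammals faces the inner membrane at the tunnel exit, had signals from 231.9 to 258.8 in tubule and from 185.9 to 243.5 in whole fly and was not called (adjusted p = 0.12, limma). Low signals limited mRpL41, with 0 of 10 arrays at 50 or above, mRpL19, with 3, and mRpS22, with 2. Their enrichments were 1.21 ± 0.321, 0.715 ± 0.183 and 0.807 ± 0.266, in the same order, with adjusted p of 0.46, 0.061 and 0.21 (limma). mRpL19 was lower in tubule in 5 of 5 pairs all the same.

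The mitoribosomal genes tko and bonsai, whose symbols are outside the rule, were close to level between tubule and whole fly. The gene technical knockout (tko) encodes the mitochondrial S12 protein of the decoding center and is known for bang-sensitive mutants. Its mean signal was 116 ± 10.3 in tubule and 116 ± 14.4 in whole fly, an enrichment of 1.01 ± 0.163 (adjusted p = 0.99, limma). bonsai, the mitochondrial S15 protein, was at 183 ± 23.8 and 194 ± 21.6, an enrichment of 0.952 ± 0.163 (adjusted p = 0.58, limma). A probe set named for mRpS10 and for CG34316 together was lower in tubule, with signals of 87.8, 49.8, 87.3, 79.4 and 87.5 against 122.2, 158.3, 143.5, 197.3 and 178.9 in whole fly (adjusted p = 0.0019, limma). The signal of that probe set cannot be divided between its genes. CG4866, for which the gene table gives mRpS4 as a synonym, had signals under 50 in all arrays, with means of 12.4 and 25.5 (enrichment 0.536 ± 0.319, adjusted p = 0.030, limma). It was looked at for that synonym alone, which does not show that its protein belongs to the mitoribosome.

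The mean signals of the 64 members ran from 28.1 to 617 in tubule and from 24.3 to 473 in whole fly. Across these genes the mean signals of tubule and of whole fly had a Spearman correlation of 0.905, against 0.418 across the 6125 probe sets whose signal averaged 50 or more. It was 0.939, 0.976 and 0.982 across the lists of mitochondrial gene expression, cytosolic ribosomal protein and respiratory genes. These values are descriptions, since the points share probes and arrays and genes are not independent replicates. The members' signals summed to 9335 ± 521 in tubule and 9531 ± 839.7 in whole fly (SD, n = 5 arrays).

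The values of the mitoribosomal genes were set beside the genes it works with. Nuclear genes of the respiratory chain and ATP synthase, whose products are assembled with those made on the mitoribosome, gave 46 called higher and 14 called lower of 71, with a median log2 fold change of 0.58. COX7A, a subunit of cytochrome c oxidase, had an enrichment of 2.56 ± 0.229 (adjusted p = 6.1e-06, limma), and ATPsyngamma, the shaft of ATP synthase, one of 1.98 ± 0.107 (adjusted p = 2.3e-05, limma). These examples were chosen after their values were seen. Apart from ND-B8 and COX7C, the genes of this list called lower carry an L in their symbols and are paralogs of a main subunit gene. In pairs 2 to 6 the median of the respiratory list was 0.58, 0.44, 0.67, 0.49 and 0.57, while that of the mitoribosomal members was -0.06, -0.03, 0.07, -0.37 and -0.10. The members stood lower in 5 of 5 pairs, by a mean difference of -0.65 ± 0.14 on the log2 scale (SD, n = 5 pairs). A linear scaling of the arrays cannot change this order, but it turned after quantile normalization, at 0.23 for the members and 0.12 for the respiratory genes.

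Cytosolic ribosomal proteins, which build the ribosomes that make all imported mitochondrial proteins, gave 19 called higher and 6 called lower of 37, with a median of 0.26. This list holds only genes with a single-gene probe set. Apart from RpS29, the genes called lower were RpL10Aa, RpS10a, RpS28a, RpS5b and RpLP0-like, whose symbols mark gene copies or a like gene. The members stood lower than this list in 5 of 5 pairs, by a mean of -0.37 ± 0.14. This order too turned after quantile normalization, at 0.23 for the members and 0.02 for the cytosolic list. A ratio of sums within an array does not depend on linear scaling. The summed signal of the mitoribosomal members was 6.43%, 7.03%, 6.96%, 6.70% and 6.96% of that of the cytosolic list in tubule arrays 2 to 6, and 8.35%, 7.79%, 8.04%, 9.18% and 8.59% in the fly arrays. All tubule values were below all fly values.

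**Figure D3:**
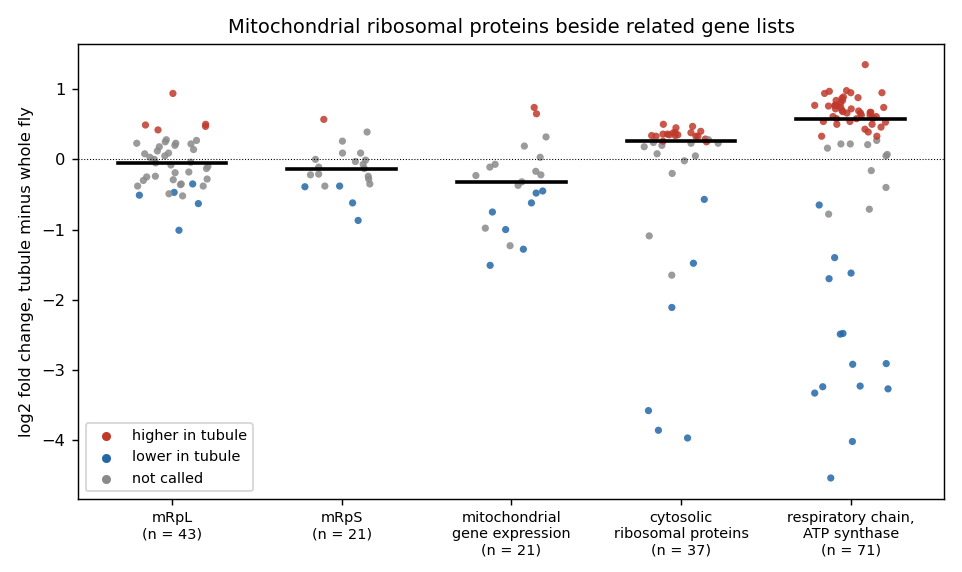
Log2 fold change (tubule minus whole fly) of each gene of the mRpL and mRpS members and of 3 related lists, with a bar at each median and red, blue and grey points for genes called higher, called lower and not called. The members lie in a narrow band around medians of -0.05 (mRpL) and -0.13 (mRpS), the cytosolic ribosomal proteins and respiratory genes have medians of 0.26 and 0.58 with a tail of low genes, and the mitochondrial gene expression list has a median of -0.32, an order of lists that turned after quantile normalization (0.23 for all members, 0.02, 0.12 and 0.04 for the others).

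Other factors of mitochondrial gene expression, listed together with the DNA proteins mtSSB, PolG1 and mtDNA-helicase, were mixed. Of the 21 genes in this list, 2 were called higher and 7 lower, with a median log2 fold change of -0.32. These shares (9.52% and 33.3%) were below those of all probe sets (16.8% and 36.3%), and the median was the same as theirs. The mitoribosomal members stood higher than this list in 5 of 5 pairs, by a mean of 0.17 ± 0.10, an order that turned with signals under 50 set to 50 (-0.06 and -0.04). The elongation factor mEFTu1, which brings aminoacyl-tRNA to the mitoribosome, was higher, with signals averaging 334 ± 26.1 in tubule and 215 ± 34.7 in whole fly (enrichment 1.59 ± 0.343, adjusted p = 0.0039, limma). Its exchange factor mEFTs was lower, at 62.3 ± 12.5 and 176 ± 24.6 (enrichment 0.360 ± 0.0905, adjusted p = 1.4e-04, limma). The initiation factor mIF2 was the other gene called higher (1.71 ± 0.447, adjusted p = 0.027, limma), at low signals of 39.1 and 23.3. The remaining genes called lower included the single-stranded DNA binding protein mtSSB (enrichment 0.424 ± 0.120, adjusted p = 2.5e-04), the DNA packaging and transcription factor TFAM (0.510 ± 0.119, adjusted p = 4.6e-04), the DNA polymerase PolG1 (0.598 ± 0.0740, adjusted p = 0.017) and mtDNA-helicase (0.669 ± 0.186, adjusted p = 0.028). mTerf5 (0.739 ± 0.0917, adjusted p = 0.023) and PNPase (0.733 ± 0.159, adjusted p = 0.036), a mitochondrial RNA-degrading enzyme, completed the 7 (limma). The mitochondrial RNA polymerase PolrMT (0.875 ± 0.196, adjusted p = 0.28) and mEFTu2 (0.959 ± 0.145, adjusted p = 0.63) were not called (limma).

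Pair 5 stood apart in the members. Their median in that pair was -0.37, against -0.10 to 0.07 in the other pairs. In whole fly array 5, 55 of 64 members were above their mean over the fly arrays, with a median deviation of 0.19 on the log2 scale. In whole fly array 4, 11 of 64 were above it, with a median deviation of -0.15. In tubule array 5, 18 of 64 were above the tubule mean, with a median of -0.08. Of the 6125 probe sets whose signal averaged 50 or more, 3514 were above their group mean in whole fly array 5. The number was 2555 in whole fly array 4 and 3069 in tubule array 5. The shifts of these fly arrays were not peculiar to the members. The genes of mitochondrial gene expression deviated by a median of 0.20 in whole fly array 5 and -0.22 in array 4. Cytosolic and respiratory genes deviated in whole fly array 5 by a median of 0.05 and -0.10. In tubule array 5 they deviated by -0.06 and -0.15, with 8 of 37 and 11 of 71 genes above the tubule mean. The genes of mitochondrial gene expression deviated there by -0.04, with 9 of 21 above it. The low values of tubule array 5 were thus not peculiar to the members either. The median of the members without pair 5 was -0.005.

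**Figure D4:**
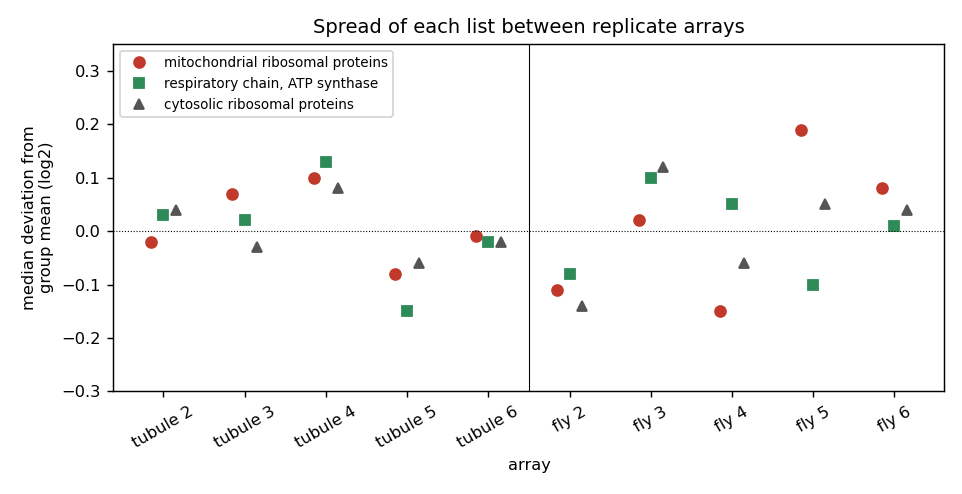
Median deviation (log2) of the genes of 3 lists from their group mean in each of the 5 tubule and 5 whole fly arrays, with red circles for the mitochondrial ribosomal proteins, green squares for the respiratory genes and grey triangles for the cytosolic ribosomal proteins. The mitochondrial ribosomal proteins range from -0.08 to 0.10 in tubule and from -0.15 to 0.19 in whole fly, where array 5 is highest.

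Markers of other tissues also varied between the arrays. Female germline genes, such as osk and exu, deviated by a median of -0.48, 0.04, -0.18, 0.35 and 0.32 in whole fly arrays 2 to 6, where the members deviated by -0.11, 0.02, -0.15, 0.19 and 0.08. Their summed signal was 2193 to 3874 in whole fly and 197.8 to 433.7 in tubule, and 8 of 9 were called lower in tubule. Digestive enzyme genes of the midgut summed to 1190.1 to 15005 in tubule and 40559 to 52525 in whole fly. They deviated in tubule arrays 2 to 6 by a median of 1.48, 1.31, -2.04, 0.70 and -1.26. All 12 were called lower. In pairs 4 and 6, where midgut signals in tubule were lowest, the members' median was -0.04. Testis genes deviated in whole fly arrays 2 to 6 by a median of -0.40, 0.15, 0.69, -0.41 and 0.10. Their sign was opposite to that of the members in arrays 4 and 5 and the same in arrays 2, 3 and 6. Yolk and eggshell genes deviated by -0.92, 0.34, -0.03, 0.28 and 0.21 in these fly arrays, with the sign of the members in each. Male accessory gland genes summed to 126.4 to 4203 in tubule and deviated there by 1.19, -0.83, 1.02, 1.68 and -3.13, a wider range than that of the midgut genes. The part of these tissues in the members' values was not tested. Of the marker lists, the 5 tubule markers, such as Irk3 and NaPi-T, were called higher, and 6 of 6 muscle, 10 of 10 yolk and eggshell, 8 of 8 male accessory gland, 7 of 9 testis, 4 of 5 fat body and 1 of 5 neuron genes were called lower, with 1 fat body gene higher.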

How the data were processed

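RNA of tubules and whole flies was hybridized to 10 Affymetrix arrays. The deposited intensities are MAS 5.0 signals that the authors computed per probe set (background subtracted, perfect match against mismatch, linear scaling of each array), and no build or coordinates were used. They run from 0.1 to 14002.8 on a linear scale. Of 14010 probe sets, 44 array controls were left out. The platform annotation names 1 gene for 12443, several for 327 and none for 1196, and 12394 were matched to the RefSeq table to update symbols. The test was limma 3.58.1 (R 4.3.3) on log2 signals, with the pair as a block and an intensity trend, and p was adjusted by Benjamini and Hochberg over 13966 probe sets. The fit was tested on simulated data. The pairing rests on the methods, where each fly sample comes from the culture of its tubules, and the authors discarded the first of their repeats after quality control. Deviations of same-numbered arrays had correlations from -0.089 to 0.091 (other numbers -0.214 to 0.167). Precision is limited by the small number of arrays.

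Members and lists were chosen with earlier results of these data known. Genes named were up to 8 called highest and 8 called lowest, the 5 of highest and 3 of lowest tubule signal, the 4 nearest 0, those with several probe sets, the S18 copies, tko, bonsai and those whose call changed in most of 18 alternatives. Bacterial counterparts were assigned by the number in the symbol, up to 36 for mRpL and 21 for mRpS, with mRpS24 and mRpS28 added and mRpS18A and mRpS18B left out. Such a rule can misplace a gene.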

Additional observations from a re-analysis of the deposited data

Results flagged for a closer look

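Of 128 groups of 5 signals examined (64 genes in tubule and in whole fly), 3 had an array far from the others, where chance gives about 1 in 20. mRpL2 was at 100.2 in whole fly array 2, with the other fly arrays from 115.1 to 119.1. mRpL35 was at 275.2 in tubule array 2, with the others from 208.4 to 225.7. mRpS25 was at 89.6 in tubule array 3, with the others from 65.8 to 71.7. mRpL2 and mRpS25 were not called in the comparison of tubule with whole fly.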

How the results depend on the processing

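mRpL28 and mRpS18A kept their direction and their call under all 18 alternatives. The number of members called higher (6) became 17 after quantile normalization, 3 without the intensity trend, and 1 both with RpL32 held constant and in pairs 4 and 6 only. The number called lower (9) became 30 with RpL32 held constant, 5 with signals under 50 set to 50, 4 after quantile normalization, 4 without the trend and 1 in pairs 4 and 6 only. Of all probe sets, 56.6% were called with RpL32 held constant, 54.4% after quantile normalization and 50.4% without the trend. The share was 29.6% with signals under 50 set to 50 and 36.9% in pairs 4 and 6 only, against 53.1% in the main fit. With a pair left out in turn, 3 to 7 members were called higher and 3 to 11 lower, and the members' median ran from -0.13 to -0.005. In those settings 46.0% to 50.8% of all probe sets were called. The median of -0.09 moved to 0.23 after quantile normalization and to -0.43 with RpL32 held constant. An unpaired t-test on the linear MAS 5.0 signals, after Benjamini-Hochberg, called 8 members higher and 10 lower, and 50.3% of all probe sets. At an unadjusted p under 0.01 it called 5 and 6, and 5755 of all 13966 probe sets. The paper applied that threshold to dChip values, together with filters on fold change and difference that were not used here. Pairs left out mean fewer arrays, and otherwise the cause was not tested.

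Some genes reversed, and the examples given here moved between values that were not called, except mRpL44 and mRpL32. mRpL44 was called lower in the main fit, and mRpL32 was called lower only with RpL32 held constant. Further members changed sign as well, such as mRpL32, which ran from -0.64 to 0.30 over the alternatives, and mRpL20, from -0.26 to 0.44. After quantile normalization mRpL11 was at 0.23, mRpL19 at 0.11, mRpL44 at 0.08, mRpS18B at 0.33, mRpS22 at 0.27 and mRpS24 at 0.28. With RpL32 held constant mRpL1 was at -0.31, mRpL41 at -0.11 and mRpL45 at -0.11. In that setting mRpL51 and mRpS6, at 0.003 and 0.005 in the main fit, were at -0.34 and -0.33. With a pair left out in turn, mRpL1 ran from -0.03 (without pair 2; -0.01 without pair 4) to 0.10, and mRpS24 from -0.14 to 0.08 (without pair 5; 0.01 without pair 4).

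Without the replicate block, 7 members were called higher and 11 lower, and 55.4% of all probe sets were called. mRpS16 lost its call, and mRpL14, mRpL15, mRpL19 and mRpS18C gained one. The median of the members was -0.09 with the block and without it.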
